A study of Mus musculus with 6 samples.

Results

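Endothelial leukocyte adhesion molecules are the surface proteins that let blood leukocytes stop on a vessel wall and leave the blood. The group held 9 genes, Vcam1, Icam1, Icam2, Sele, Selp, Mcam, Jam2, F11r and Aoc3, taken by symbol from the 21956 genes of the table as a functional family. All 9 were found, and 8 passed the filter on low counts and were among the 13197 genes tested; Aoc3 did not pass and is given as counts. RNA was measured in whole liver of 3 knockout mice, Stingfl/fl with Cdh5-Cre+, and 3 control littermates, Stingfl/fl with Cdh5-Cre-. Both groups carried the floxed alleles, were on chow until 8 weeks of age and then received CDAHFD, a high-fat diet without choline in which L-amino acids replace protein, during 10 weeks, a regimen that produces steatohepatitis. Cdh5 encodes VE-cadherin, so that its promoter directs Cre to endothelial cells. Only the knockout mice carried Cre, so that an effect of Cre and that of the deletion cannot be told apart. The comparison asks whether liver transcripts of these molecules differ between mice with and without endothelial Sting1, an adaptor of cytosolic DNA sensing.

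Leukocytes leave the blood in steps. Selectins (Sele, Selp) catch passing cells by their sugar chains, immunoglobulin-family molecules (Icam1, Icam2, Vcam1) hold them through leukocyte integrins, and junctional molecules (Jam2, F11r, Mcam) and the amine oxidase Aoc3 take part in their passage across the endothelium. Inflammatory cytokines acting through NF-kB switch on Sele, Vcam1 and Icam1, whereas Icam2 is carried constitutively by endothelium. In the liver sinusoid adhesion is known to depend little on selectins and more on ICAM-1, VCAM-1 and AOC3 (VAP-1).

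Total counts ran from 16704664 to 21025461 per library. Sting1 had 240, 365 and 226 counts in control and 106, 114 and 80 in knockout replicates 1 to 3, and the knockout mean was 40.9% of the control mean after scaling (adjusted p = 0.357 in edgeR and 0.00151 in DESeq2). The labels name sinusoidal endothelial cells as the cell type, but the libraries were those of whole liver: the 10 hepatocyte markers took 88056 to 139110 CPM (a gene's counts scaled to a common library total) and the 16 pan-endothelial markers 465.8 to 519.4. Control replicate 2 stood apart, with a scaling factor (TMM, the trimmed mean of M-values) of 1.26 against 0.922 to 1.01 in the other libraries. In whole liver, fewer cells of a type and less RNA per cell cannot be told apart.

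The genes of both selectins lie near each other. Sele spans 164048234 to 164057677 and Selp 164115264 to 164150026 on chromosome 1 (GRCm38, plus strand), 57.6 kb apart. F11r lies on the same chromosome at 171437535 to 171464603. Icam1 (chromosome 9, 21015985 to 21028817, plus strand) is followed by Icam4 after 0.555 kb and by Icam5 after 3.26 kb, and Mcam is on the same chromosome at 44134469 to 44142727. Icam2 (106377656 to 106388075, minus strand) and Aoc3 (101330605 to 101341938, plus strand) are on chromosome 11, Vcam1 on chromosome 3 (116109949 to 116129688, minus strand) and Jam2 on chromosome 16 (84774123 to 84825928, plus strand). All 9 are annotated as protein coding in GENCODE M21. Genes of the opposite strand overlap the spans of Vcam1, Icam1, Selp, Mcam and Aoc3, and an rRNA gene on the same strand, Gm25908, lies within Jam2. The libraries were strand-specific, but how strand entered the counting is not stated. Whether reads from an antisense partner were kept apart from those of the member is therefore not known.

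The start-site windows of 3 members are shown as a description. Sele and Selp were taken as selectin genes of unequal level, and Icam1 as the gene measured with the smallest standard error. A link between the windows and the levels was not tested. RefSeq windows of build GRCm38.p6, from 250 bases before to 50 after the gene start, were at hand for 5 of the 9 members (Sele, Selp, Icam1, Mcam and F11r). Capitals mark every match on either strand to TATAAA, to the AP-1 motif TGANTCA, to the interferon-activated site TTCNNNGAA, to AGATAA of GATA factors or to the kB consensus. The windows are, 5′ to 3′, Sele at chr1:164047984-164048283 (plus strand), Selp at chr1:164115014-164115313 (plus strand) and Icam1 at chr9:21015690-21015989 (plus strand).
Sele: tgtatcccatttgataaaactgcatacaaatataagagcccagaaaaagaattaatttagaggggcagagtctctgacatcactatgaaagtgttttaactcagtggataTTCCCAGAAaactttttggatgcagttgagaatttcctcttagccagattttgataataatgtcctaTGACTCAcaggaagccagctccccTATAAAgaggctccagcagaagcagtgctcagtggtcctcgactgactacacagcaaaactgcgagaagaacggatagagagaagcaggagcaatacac
Selp: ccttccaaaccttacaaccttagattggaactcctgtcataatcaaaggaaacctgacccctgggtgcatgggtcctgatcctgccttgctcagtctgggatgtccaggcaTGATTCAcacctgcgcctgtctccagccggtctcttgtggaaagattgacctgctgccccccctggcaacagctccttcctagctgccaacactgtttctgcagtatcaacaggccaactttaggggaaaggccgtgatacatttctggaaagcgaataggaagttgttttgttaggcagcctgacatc
Icam1: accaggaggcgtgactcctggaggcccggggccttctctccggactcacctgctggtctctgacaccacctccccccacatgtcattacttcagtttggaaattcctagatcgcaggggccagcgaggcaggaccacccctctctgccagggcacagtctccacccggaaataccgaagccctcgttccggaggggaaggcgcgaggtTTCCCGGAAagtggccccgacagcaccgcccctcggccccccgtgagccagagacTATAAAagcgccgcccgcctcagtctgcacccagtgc

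In the Sele window TATAAA began 49 bases before the start, TGACTCA 73 bases before and TTCCCAGAA 140 bases before. The Selp window held TGATTCA 139 bases before the start and no TATAAA. Icam1 had TTCCCGGAA 42 bases before the RefSeq start, and TATAAA lay 13 bases after it. The GENCODE start of Icam1, 21015985, lies further downstream, and both matches lie before it. F11r held TGAGTCA 109 bases before its RefSeq start and Mcam none of these letters. The RefSeq and GENCODE starts also differ for F11r and Mcam. No match to the kB consensus or to AGATAA was in any of the 5 windows. The kB search does not cover sequences that depart from the consensus, such as tggaaattcc in the Icam1 window. The absence of a match is therefore not the absence of a kB site. Among 32851 RefSeq windows of 300 bases, TATAAA was in 13.6%, TGANTCA in 7.81%, TTCNNNGAA in 8.30%, AGATAA in 11.2% and the kB consensus in 4.51%. No matches overlapped one another in these windows, and a match is a description of letters, not of binding.

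F11r and Vcam1 were the most abundant members, and the range of levels was wide. Per length, in the authors' TPM (transcripts scaled to length and to a common total), the control means were 73.8 ± 18.2 (SD, n = 3) for F11r, 56.2 ± 29.4 for Vcam1, 27.1 ± 7.08 for Icam1, 16.95 ± 6.12 for Jam2, 9.48 ± 4.70 for Mcam, 7.74 ± 1.74 for Icam2, 2.15 ± 0.603 for Selp, 0.693 ± 0.137 for Sele and 0.0743 ± 0.0136 for Aoc3. The knockout means followed the same order, from 57.5 ± 4.54 for F11r to 0.0690 ± 0.0416 for Aoc3. For comparison the TPM of Pecam1, a platelet and endothelial adhesion molecule used as an endothelial marker, was 26.1 ± 5.89 in control and 24.9 ± 1.43 in knockout livers. Every library kept this order of TPM for all neighbouring genes except Mcam and Icam2, which did so in 5 of 6 libraries. The ranges of neighbouring genes nevertheless overlapped among control libraries from F11r down to Icam2, and among knockout libraries they overlapped for Mcam and Icam2 alone. Icam2, Selp, Sele and Aoc3 were apart from one another in both groups. F11r made 38.8% and Vcam1 27.9% of the summed TPM of the 9 genes in control livers (mean, n = 3), and 38.4% and 27.7% in knockout livers. This sum was 153.2, 269.6 and 159.6 in control and 156.7, 146.6 and 147.1 in knockout replicates 1 to 3. The sums of the groups overlapped, and control replicate 2 lay far above the other 5 libraries.

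**Figure D1:**
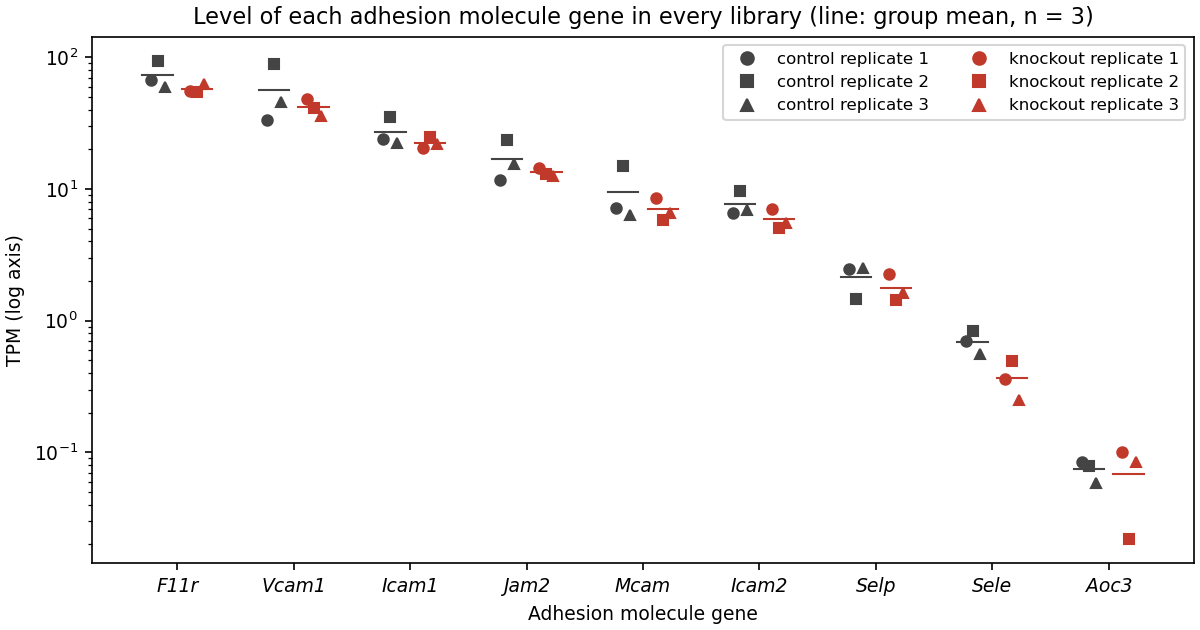
TPM of the 9 adhesion molecule genes on a log axis, ordered by control mean, with a point for each library and a line for each group mean (n = 3). The points of the groups overlap for 8 genes, whereas the 3 knockout values of Sele (0.251 to 0.497) lie below the 3 control values (0.555 to 0.828).

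No adhesion molecule passed the test for a difference between the genotypes. Of the 8 genes tested, 0 passed edgeR's quasi-likelihood test at an adjusted p under 0.05, where 0% of all 13197 genes passed. At an unadjusted p under 0.05 it was also 0 of 8, against 10.8% of all genes, and DESeq2 called 0 of 8, against 0.913% of all genes. The groups did not overlap for 1 of the 8, Sele, against 16.4% of all genes. The same gene was the 1 member apart in TPM, where 20% of all genes were apart and 18.6% were lower in every knockout library. On the log2 scale 7 fold changes were below 0 and 1 was above, with a median of -0.07 against 0.01 for all genes. Without control replicate 2 the median was 0.07, and 5 of the 8 were above 0. With no scaling factors the median was -0.30, where the median of all genes also moved, to -0.21.

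**Figure D2:**
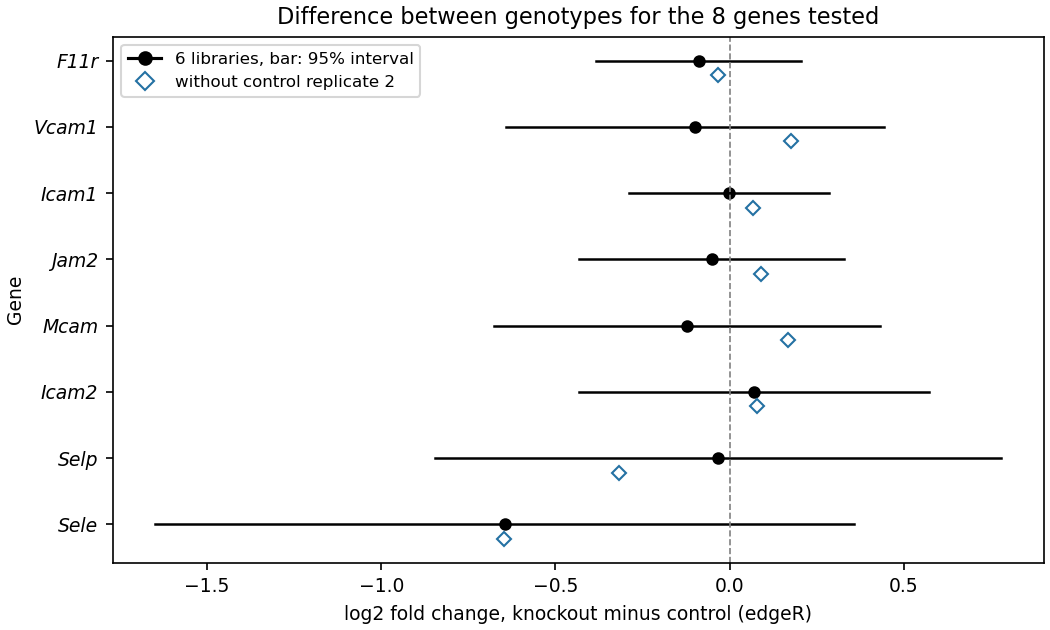
Log2 fold change of the 8 tested genes, knockout minus control, from edgeR. Bars are 95% intervals over 6 libraries and diamonds give the estimate without control replicate 2; every bar includes 0, with the narrowest for Icam1 (-0.29 to 0.29) and F11r (-0.38 to 0.21) and the widest for Sele (-1.65 to 0.36).

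The selectin genes were scarce. Sele, which encodes E-selectin of cytokine-activated endothelium, had 22, 21 and 19 counts in control and 12, 15 and 8 counts in knockout replicates 1 to 3. All 3 knockout libraries were lower than all 3 control libraries, as for 9.14% of all genes, while 7.25% were separated in the higher direction. The means were 1.01 ± 0.0929 CPM (SD, n = 3) in controls and 0.646 ± 0.211 CPM in knockout livers, 63.8% of control. The log2 fold change was -0.65, with standard error 0.44, and edgeR's adjusted p was 0.617 (unadjusted 0.178). A two-sided exact permutation test over the 6 libraries gave p = 0.1, which is the lowest value such group sizes can reach. Counting alone set much of this precision: the exact 95% Poisson interval was 3.45 to 15.8 for the lowest count, 8, and 13.8 to 33.3 for the highest, 22. The coefficient of variation among knockout libraries was 32.6%, against 29.3% from counting alone, and among control libraries 9.17% against 21.997%. Leaving out each library in turn kept the log2 fold change between -0.90 and -0.43.

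Selp, which encodes P-selectin stored in endothelial cells and platelets, had 83, 43 and 101 counts in control and 87, 51 and 61 counts in knockout replicates 1 to 3. The lowest and the highest library were both controls, replicates 2 and 3, so that the control range spanned the knockout range. The log2 fold change was -0.03, with standard error 0.36 (edgeR's adjusted p = 0.981), and its 95% interval ran from 0.557 to 1.72 times the control level. In control livers Selp varied by 40.2% (coefficient of variation) where counting gives 11.5%, so that the spread exceeded counting error. Without control replicate 2 the log2 fold change was -0.32, with standard error 0.28, and without control replicate 3 it was 0.23. Of 11 platelet and megakaryocyte markers, led by Clec1b, Itgb3 and Pf4, 4 had enough counts to be tested. The summed CPM of the 11 was 18.9 to 30.3 in control and 26.0 to 32.5 in knockout livers. How much of this sum came from platelets was not tested. Gp9 had 1 count in 1 library and none in the others; the part of platelets in the Selp counts was not tested.

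**Figure D3:**
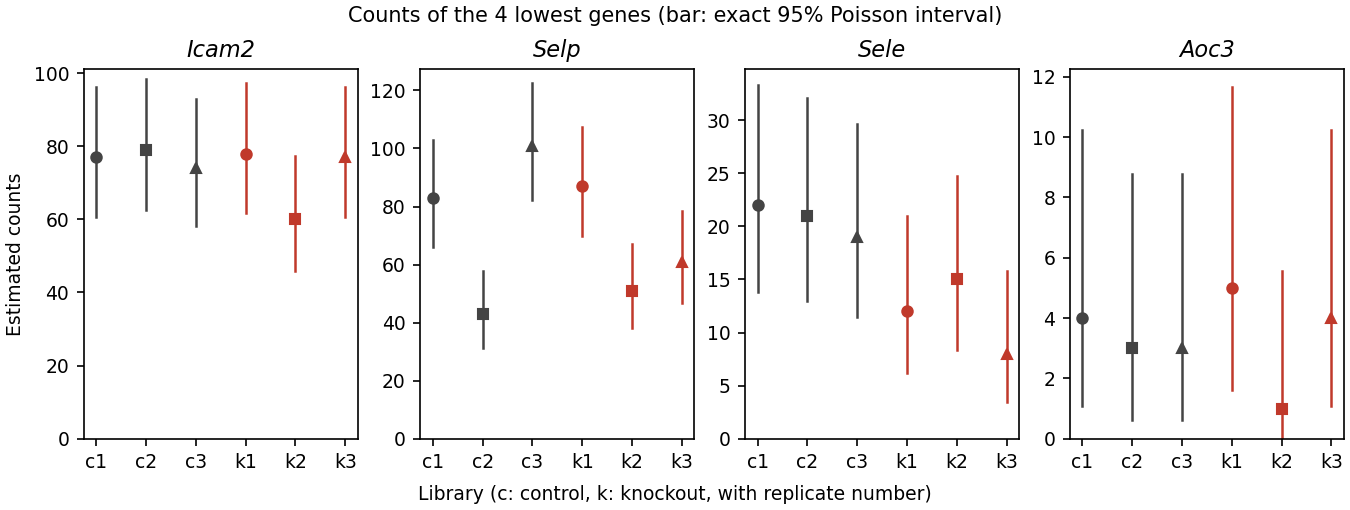
Estimated counts of Icam2, Selp, Sele and Aoc3 in each library, with exact 95% Poisson intervals as bars that cover counting error only. Sele runs from 8 to 15 counts in knockout and from 19 to 22 in control libraries, with overlapping intervals, and Selp is lowest in control replicate 2 (43 counts).

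The fold change of Icam1 had the smallest standard error of the 8 genes tested. Icam1 encodes ICAM-1, the ligand of the integrins LFA-1 and Mac-1, and its level was 32.8, 36.6 and 31.9 CPM in control and 31.2, 36.9 and 33.2 CPM in knockout replicates 1 to 3. Both groups covered nearly the same range. Its log2 fold change was -0.00, with standard error 0.13 (edgeR's adjusted p = 0.998), and the 95% interval ran from 0.818 to 1.22 times the control level. The sign of so small a difference turned under several alternatives, and the estimates that leave out 1 library ran from -0.07 to 0.07.

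Icam2, an LFA-1 ligand that resting endothelium carries, had 77, 79 and 74 counts in control and 78, 60 and 77 counts in knockout replicates 1 to 3. After scaling these were 3.75 ± 0.140 CPM (SD, n = 3) and 3.94 ± 0.434 CPM. Knockout replicate 2 was the lowest library and knockout replicate 3 the highest. Its log2 fold change of 0.07 had a standard error of 0.22 (edgeR's adjusted p = 0.919), and its 95% interval was 0.741 to 1.49 times the control level. Observed variation was 3.73% in control and 11.005% in knockout livers, at or below the 11.4% and 11.8% that counting alone gives. This value turned to -0.15 with no scaling factors, where the median of all genes was -0.21.

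Vcam1, the ligand of the integrin VLA-4 on lymphocytes and monocytes, varied more than Icam1. Its level was 60.3, 119.7 and 88.2 CPM in control and 96.1, 81.5 and 72.7 CPM in knockout replicates 1 to 3. Control replicate 2 was the highest library and control replicate 1 the lowest, with all knockout libraries between them. Between genotypes the log2 fold change was -0.10, with standard error 0.24 (edgeR's adjusted p = 0.892), and its 95% interval ran from 0.641 to 1.36 times the control level. Without control replicate 2 it was 0.18 with a standard error of 0.20. With 5515 counts in control and 4551 in knockout livers, counting gives a variation of 2.33% and 2.57%, whereas 33.2% and 14.2% were observed. In liver Vcam1 is made by Kupffer and stellate cells as well as by endothelium, so that the whole-organ value sums these sources. All 11 Kupffer cell markers, led by Cd5l, C1qb and C1qc, had log2 fold changes above 0 (median 0.75), where 6759 of all 13197 genes did. At an unadjusted p under 0.05, 6 of the 11 were higher, against 3.75% of all genes. Their summed CPM was 764.0 to 1265 in control and 1046 to 1352 in knockout livers, and their part in Vcam1 was not tested.

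F11r, of the junctional molecules, had a standard error close to that of Icam1. It encodes JAM-A, a tight junction protein of endothelium, epithelium and platelets, and stood at 92.1, 97.5 and 85.3 CPM in control and 83.5, 80.9 and 94.2 CPM in knockout replicates 1 to 3. Its highest value was in control replicate 2 and its lowest in knockout replicate 2. The log2 fold change of -0.09 had a standard error of 0.13 (edgeR's adjusted p = 0.814) and a 95% interval of 0.767 to 1.15 times the control level. F11r was below 0 in all alternatives run, from -0.15 to -0.03 when 1 library was left out. Jam2 encodes JAM-B, an endothelial junction protein that binds JAM-C and VLA-4. It stood at 27.7, 42.1 and 37.2 CPM in control and 37.4, 33.4 and 32.5 CPM in knockout replicates 1 to 3. Here too the control libraries held both the lowest and the highest value. For Jam2 the log2 fold change was -0.05, with standard error 0.17 (edgeR's adjusted p = 0.921), and 0.09 without control replicate 2.

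Mcam encodes CD146, an adhesion molecule of endothelial junctions that is also found on pericytes and smooth muscle. Its level was 11.3, 17.9 and 10.5 CPM in control and 14.9, 9.98 and 11.5 CPM in knockout replicates 1 to 3. One library of each group, control replicate 2 and knockout replicate 1, stood above the rest, and the groups overlapped. Its log2 fold change was -0.12, with standard error 0.24 (edgeR's adjusted p = 0.867), and it was 0.17 without control replicate 2. Of 6 tested smooth muscle markers 5 were below 0, where 6438 of all 13197 genes were. The median log2 fold change of these 6 markers was -0.19, or 0.04 without control replicate 2. All 9 markers of the list, led by Mylk, Tagln and Smtn, had summed CPM of 99.7 to 176.1 in control and 100.6 to 104.2 in knockout livers. Their part in Mcam was not tested. Aoc3 encodes VAP-1, an amine oxidase that leukocytes bind during transmigration and that smooth muscle and adipocytes also carry. It had 4, 3 and 3 counts in control and 5, 1 and 4 counts in knockout replicates 1 to 3, 10 counts in each group. A difference in Aoc3 was not detectable at this depth. In the fit without a filter its log2 fold change was 0.16, with standard error 0.91 (edgeR's adjusted p = 0.960 over 16685 genes). Of 7 adipocyte markers Adipoq, Lep and Plin1 had 0 counts in all 6 libraries, which allows up to 3 counts in each, and the other 4 were tested. The list, led by Pck1, Car3 and Cidec, which hepatocytes also make, summed to 2958 to 3235 CPM in control and 1804 to 3573 CPM in knockout livers. The smooth muscle myosin Myh11 had 53 to 174 counts, and the part of these cells in Aoc3 was not tested.

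The members did not all vary together from library to library. Control replicate 2 exceeded the mean of the other control libraries by 1.64 times for Mcam, 1.61 times for Vcam1 and 1.296 times for Jam2 in scaled CPM. F11r and Icam1 were at 1.10 and 1.13 times, Icam2 at 1.00 times and Sele at 0.981 times that mean, while Selp was at 0.449 times. Vcam1 and Jam2 ranked the 6 libraries in the same order (Spearman's rho 1, Pearson's r 0.98 over 6 libraries). Icam1 and Selp ran in nearly opposite order (Spearman's rho -0.89, Pearson's r -0.90 over 6 libraries). These coefficients describe 28 pairs of genes that share the libraries and their scaling factors, and no test was made of them. In the same library, control replicate 2, the summed CPM of 14 stellate cell and fibroblast markers was 3195, against 2125 and 1463 in control replicates 1 and 3 and 1219 to 1453 in knockout livers. For 10 cholangiocyte markers, of which the most abundant, Spp1, is also a macrophage marker, it was 1600, against 846.4 and 524.6 in the other control libraries and 235.9 to 523.9 in knockout livers. Of the tested markers of these lists 13 of 14 and 8 of 9 had log2 fold changes below 0, where 6438 of all 13197 genes did. At an unadjusted p under 0.05, 4 and 5 of them were lower, against 7% of all genes. The median log2 fold change was -0.53 for the stellate cell and fibroblast list and -1.25 for the cholangiocyte list. Without control replicate 2 these medians were -0.29 and -0.84. No marker of these lists was at 0 counts in every library. Their part in the values of Vcam1, Mcam and Jam2 was not tested.

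**Figure D4:**
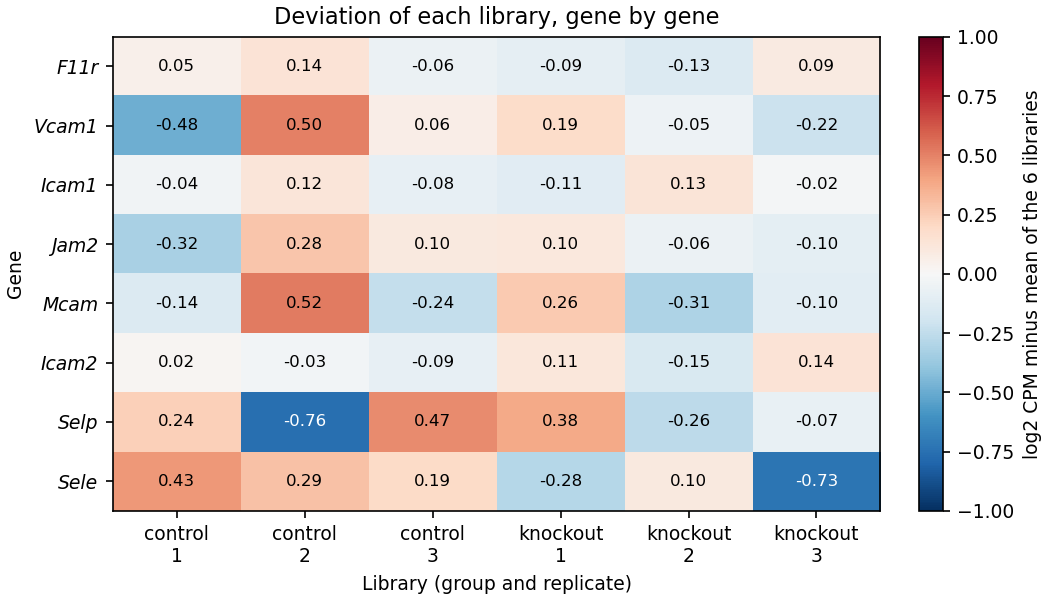
Log2 CPM of the 8 tested genes in each library as the difference from that gene's mean over the 6 libraries, with the value in each cell. Control replicate 2 is high for Mcam (0.52), Vcam1 (0.50) and Jam2 (0.28) and low for Selp (-0.76), and the lowest value of Sele is in knockout replicate 3 (-0.73).

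Set against endothelial RNA of the same library, 8 of the 9 members again overlapped between the genotypes. Such a ratio takes in RNA of a member from any cell of whole liver, such as epithelium for F11r. The part of other cells was not tested. The 16 pan-endothelial markers, among them Ptprb, Eng, Kdr and Pecam1, held 9103, 8676 and 10694 counts in control and 10168, 8904 and 9691 counts in knockout replicates 1 to 3. In the scaled fit 14 of the 16 were above 0, where 6759 of all 13197 genes were. The median log2 fold change of the 16 was 0.17. With no scaling factors it was -0.05, where the median of all genes was -0.21. Pecam1 itself stood at 0.21 in the scaled fit, with a standard error of 0.14 (edgeR's adjusted p = 0.604). Per 100 of these counts, Vcam1 had 19.7 ± 8.28 (SD, n = 3) in controls and 15.8 ± 2.06 in knockout livers, and F11r had 19.99 ± 3.63 and 16.3 ± 1.199. Icam1 had 7.37 ± 1.39 and 6.41 ± 0.744, and Jam2 had 7.78 ± 2.15 and 6.52 ± 0.403. Sele, at 0.220 ± 0.0371 and 0.123 ± 0.0432, was the member whose groups did not overlap, where 18% of all tested genes did not and 16.1% were lower in every knockout library. For the 8 genes that passed the filter the log2 differences were all below 0, as were those of 76.1% of 13141 tested genes with counts in every library. Their median was -0.23 against -0.18 for those genes, and without control replicate 2 it was -0.05 against -0.11. The two-sided exact permutation p ran from 0.1 for Sele, the lowest value such group sizes can reach, to 0.9 for Aoc3. Adjusted over the 9 members, this p was 0.9 for each of them. Sinusoidal markers, led by Fcgr2b, Mrc1 and Stab2, had summed CPM of 611.0 to 726.9 in control and 685.9 to 701.7 in knockout livers. In the scaled fit 5 of 11 were higher at an unadjusted p under 0.05, against 3.75% of all genes, and 0 passed edgeR's adjusted test. The median log2 fold change of these markers was 0.25. It was 0.28 without control replicate 2 and 0.06 with no scaling factors.

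The leukocyte counter-receptors of these molecules gave no call in edgeR either. Of 15 such genes 14 were tested, 0 passed the adjusted test, and 9 were above and 5 below 0, with a median of 0.02 on the log2 scale. That median was 0.19 without control replicate 2 and -0.22 with no scaling factors. At an unadjusted p under 0.05, 1 was higher and 1 lower, where 3.75% and 7% of all genes were. Itgal, the LFA-1 chain that binds ICAM-1 and ICAM-2, stood at 58.3 ± 7.12 CPM (SD, n = 3) in controls and 75.1 ± 10.1 CPM in knockout livers (log2 fold change 0.37, edgeR's adjusted p = 0.447), with overlapping groups. Of 13 T and NK cell markers, led by Cd8a, Cd3g and Nkg7, 10 were above 0 and 4 were higher at an unadjusted p under 0.05. The median log2 fold change of these 13 was 0.42. It was 0.61 without control replicate 2 and 0.15 with no scaling factors. Their summed CPM was 17.2 to 26.6 in control and 20.5 to 38.4 in knockout livers. Cd8a, a chain of the cytotoxic T cell co-receptor, was at 2.15 ± 0.681 and 6.70 ± 2.74 CPM, with adjusted p of 0.367 in edgeR and 0.0139 in DESeq2. The part of these cells in Itgal was not tested. Itgam (0.03) and Itgb2 (0.22), which form Mac-1, and Itga4 (-0.20) and Itgb1 (-0.05), which form VLA-4, had overlapping groups. Without control replicate 2 these log2 fold changes were 0.19, 0.38, -0.06 and -0.03. Selplg, which encodes the selectin ligand PSGL-1, stood at 0.10, and the integrin chain Itgb7 at 0.12, against 0.33 and 0.19 without control replicate 2. Siglecg had 0 to 19 counts per library. Cd24a, a ligand of P-selectin on leukocytes that biliary and progenitor epithelium also carries, was lower in every knockout library, with 878, 1362 and 665 counts in control and 449, 120 and 264 in knockout replicates 1 to 3. Its log2 fold change was -1.64, with standard error 0.45, and its adjusted p was 0.373 in edgeR and 0.0121 in DESeq2. The cholangiocyte markers given above were lower as well in summed CPM, and their part in Cd24a was not tested.

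Other vascular adhesion genes were also without a call. Of 17 genes 13 were tested, and 7 were above and 6 below 0, with a median of 0.10 on the log2 scale. Ackr1, a chemokine-binding receptor of venular endothelium, had 13, 15 and 22 counts in control and 42, 42 and 23 counts in knockout replicates 1 to 3. Its log2 fold change was 1.27, with standard error 0.42, and its adjusted p was 0.381 in edgeR and 0.202 in DESeq2. In raw counts the highest control and the lowest knockout library differed by 1 count. Cdh5, whose promoter drives the Cre, stood at 43.4 ± 7.16 CPM (SD, n = 3) and 52.2 ± 3.84 CPM (0.27, edgeR's adjusted p = 0.554). Alcam, at -0.46, and Cd34, a glycoprotein of capillary endothelium at -0.58, did not pass, and were -0.20 and -0.14 without control replicate 2. Jam3, which encodes the JAM-C partner of JAM-B, had 44 to 66 counts in control and 30 to 42 in knockout livers, at -0.27 with a standard error of 0.31, and -0.07 without control replicate 2. Madcam1 had at most 3 counts in any library and Glycam1 none in the 6.

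Genes that build selectin ligands, anchor the docking site or shed the ectodomains gave no call in edgeR or DESeq2. Of 11 tested enzymes of selectin ligand synthesis 6 were above 0, with a median of 0.12. The sialyltransferases St3gal4 and St3gal6 were apart between the groups in opposite directions, at 0.50 and -0.88 (edgeR's adjusted p = 0.387 and 0.381). Of 14 cytoskeletal and signalling partners at the docking site 11 were below 0, with a median of -0.08. None of them had an unadjusted p under 0.05, and Trio came nearest (-0.32, unadjusted p = 0.0528 in edgeR). Of 9 sheddases 6 were below 0, with a median of -0.15, among them Adam10 at -0.23 and Mmp14 at -0.23, and Adam17, a protease that sheds adhesion molecules, stood at 0.08. Without control replicate 2 the median was -0.06, with Adam10 at -0.14, Mmp14 at -0.15 and Adam17 at 0.25, and the median of the docking partners was -0.03.

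The signals that switch on adhesion genes were spread around 0 as a list. Of 23 inducers 19 were tested, with 10 above and 9 below 0 and a median of 0.04 on the log2 scale. Il1b, a cytokine inducer of E-selectin, had 53, 76 and 63 counts in control and 92, 123 and 75 counts in knockout replicates 1 to 3. After scaling its groups did not overlap, at 3.12 ± 0.473 CPM (SD, n = 3) and 5.36 ± 1.52 CPM (0.78, edgeR's adjusted p = 0.392). Irf1, an interferon-induced transcription factor, was apart in the same direction, at 28.7 ± 4.40 and 42.5 ± 2.12 CPM (0.57, edgeR's adjusted p = 0.367). Tnfrsf1a, the main receptor of TNF, stood at 0.24 and Gata6, an endothelial and stellate transcription factor, at -0.60, which was -0.35 without control replicate 2. Tnf itself had 19 to 43 counts in control and 21 to 30 in knockout livers. Of 11 NF-kB feedback genes 6 were above 0, with a median of 0.01. Bcl3, an NF-kB cofactor, was higher in all knockout libraries at 20.3 ± 4.78 and 31.1 ± 4.18 CPM (0.61, edgeR's adjusted p = 0.381), and Birc3 lower in all of them at -0.19. In TPM the groups of Il1b, Irf1, Bcl3, Tnfrsf1a, St3gal4 and Cdh5 overlapped, while those of Birc3 were apart. The median of the NF-kB feedback list was 0.06 without control replicate 2.

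**Figure D5:**
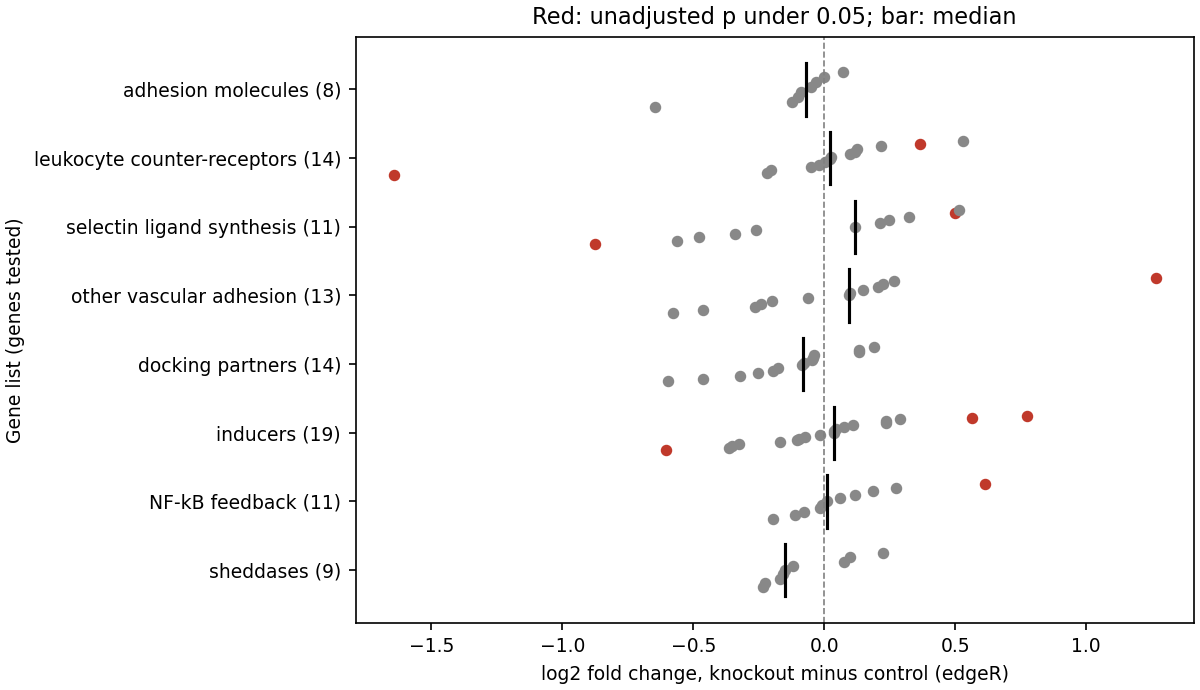
Log2 fold change, knockout minus control, of each tested gene in the adhesion group and 7 partner lists, with the median as a bar and genes with an unadjusted p under 0.05 in red. None of the 8 adhesion genes is red, and the widest values belong to Cd24a (-1.64) and Ackr1 (1.27), neither of which passed edgeR's adjusted test.

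The genes whose log2 CPM was most like that of a member over the 6 libraries are given as a description, since 6 points make high coefficients common. For Sele these were Clock, Eaf1 and Spef1, with Pearson's r from 0.99 to 1.00, and 458 genes had an r over 0.9. Vcam1 was most like Pkp1, Plcb3 and Jam2 (r from 0.98 to 0.99, with 104 genes over 0.9). For Icam1 the list was Nop56, Tubb4b and Sf1 (96 genes over 0.9), for Icam2 it was Ist1, Ctf1 and Gde1 (69 genes), and for Selp it was Chpt1, Ighv1-55 and Pcgf1 (146 genes). Mcam was nearest to Eml1, Vill and Daam2 (130 genes), Jam2 to Zfp551, Nlrp3 and Gdpd1 (64 genes), and F11r to Map9, Mmp23 and Tmem204 (59 genes). Among members, Jam2 was the only one named for another member.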

How the data were processed

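Messenger RNA of whole liver from 6 mice was sequenced. The authors deposited estimated counts and TPM for each gene. The submitters' processing notes name the build GRCm38 and, without their roles, the tools RSEM 1.3.3, HISAT2 2.2.1, DESeq2 1.38.3 and fastp 0.23.2; the annotation release is not given in these notes. The deposited estimated counts were not normalized, 6.93% of them were not whole, and they were rounded. The deposited TPM values were used for levels between genes. Knockout and control (3 each, biological replicates per the labels) were compared in edgeR 4.0.16 (TMM, filterByExpr, robust quasi-likelihood fit, Benjamini-Hochberg adjustment at 0.05), which left 13197 of 21956 genes. CPM of single genes were computed on TMM-scaled totals and summed CPM of marker lists on plain totals. Each standard error was derived from its quasi-likelihood F value, and intervals from the fit's degrees of freedom. Poisson intervals cover counting error only.

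Alternatives were DESeq2 1.42.0, limma 3.58.1 (voom, and log2(TPM + 1) or log2(TPM + 0.1)), other scalings and filters, a replicate block and each library left out. Positions came from GENCODE M21, which held 21804 of the table's identifiers. The work ran in R 4.3.3 and in Python 3.11.15 with matplotlib 3.10.9. All members are named, with up to 4 genes of smallest p per partner list, direct binding partners and the 3 most abundant markers of a list; Icam4, Icam5, Glycam1, Madcam1, Adam17, Tnf, Gp9, Myh11, Adipoq, Lep and Plin1 are named beyond that rule, picked with their values in view. The members and lists were chosen with earlier results of these data known.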

Additional observations from a re-analysis of the deposited data

How the results depend on the processing

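No adhesion molecule was called under any alternative run. The number of genes called across the table was 0 in edgeR, 118 in DESeq2, 5 with the replicate block and 0 to 2 when 1 library was left out. Replicate numbers were not taken as pairs: deviations of same-numbered libraries correlated across genes at 0.115, -0.00678 and 0.133, and not every library correlated best with its own number. The median of the 8 members, -0.0701, was -0.302 with total counts only, -0.308 in log2(TPM + 1) and -0.324 in log2(TPM + 0.1), settings in which all tested genes had medians of -0.209, -0.198 and -0.229; it ran from -0.16 to 0.0735 with 1 library left out, and was -0.0461 with the replicate block.

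Log2 fold changes near 0 turned sign. Vcam1, Icam1, Mcam and Jam2 were 0.126, 0.0334, 0.0347 and 0.0731 in voom with sample weights. Icam1 was also 0.00867 with DESeq2 size factors, 0.00852 in DESeq2 and 0.00664 without a filter. Icam2 was -0.148 with total counts only, and -0.334 and -0.378 in the TPM fits. Selp was 0.0488 in limma-voom and 0.0213 with the replicate block. With 1 library left out Vcam1 ran from -0.307 to 0.175, Icam1 from -0.0674 to 0.0671, Selp from -0.318 to 0.227, Mcam from -0.291 to 0.167 and Jam2 from -0.193 to 0.0918. Sele and F11r stayed below 0 wherever they were tested; Sele was not tested at the filter of 1 CPM in 3 libraries. Depth limits Sele and Aoc3, at 97 and 20 counts over the 6 libraries.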

Other observations

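Ratios of TPM between related members are given as values chosen after the data were seen. Icam1 exceeded Icam2 by 3.65, 3.62 and 3.19 times in control and 2.89, 4.90 and 3.97 times in knockout replicates 1 to 3. Selp exceeded Sele by 3.54, 1.75 and 4.55 times in control and 6.20, 2.91 and 6.52 times in knockout replicates 1 to 3. The groups overlapped for both ratios, with two-sided exact permutation p of 0.7 and 0.3 where the smallest possible is 0.1.

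Beside Icam1 on the chromosome lie genes with few counts. Icam4 and Icam5, which follow Icam1, had at most 6 and 4 counts in any library.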
